A study of Rattus norvegicus with 4 samples.

Results

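The genes described here are 9 regulators and precursor genes of the oligodendrocyte lineage, Olig1, Olig2, Sox10, Nkx2-2, Myrf, Pdgfra, Cspg4, Enpp2 and Fa2h, chosen by name and found on the arrays by the transcript accession of each probe. Of the 9 genes, 8 were matched by 10 probes, out of 30367 probes in all, and all 8 were among the 22817 genes kept for the tests. No probe accession mapped to Nkx2-2, which was not analysed here. The study hybridised total RNA from rat spinal dorsal horn to 4 Agilent 2-colour arrays. On 2 arrays the Cy5 channel held, per the labels, RNA of male rats aged 6 weeks treated with oxaliplatin, a platinum chemotherapy drug, and taken on day 10. On the other 2 arrays it held RNA of male rats of the same age and day treated with vehicle. The Cy3 channel of all 4 arrays held, per the labels, RNA of untreated male rats aged 6 weeks. The strain, the drug dose and whether an array held 1 rat or a pool are not given in the sources used here.

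Oligodendrocytes are the cells that wrap axons of the central nervous system in myelin, and they arise from dividing precursor cells that stay in the adult spinal cord. The precursors carry the growth factor receptor Pdgfra and the proteoglycan Cspg4 (also called NG2) on their surface. The transcription factors Olig1, Olig2, Sox10 and Nkx2-2 hold the lineage together, and Myrf switches on the myelin genes as precursors differentiate. Enpp2 and Fa2h are enzymes of differentiating and mature oligodendrocytes. Several of these genes are not confined to the lineage: Sox10 and Fa2h are also used by Schwann cells, Pdgfra by fibroblasts, Cspg4 by pericytes and Enpp2 by the choroid plexus.

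The channels differed in genes of cells that lie outside the dorsal horn, and the part of such RNA in the ratios below was not tested. All 10 Schwann cell genes and all 9 measured genes of sensory ganglion neurons were called higher in Cy5 than in Cy3, beside 29.3% of all genes. Their median log2 Cy5/Cy3 ratios were 2.42 and 4.43. No dye swap is labelled, and the extract protocol names Cy3 labelling only, so RNA source and dye cannot be told apart in a ratio. Which channel held which RNA rests on the labels alone: if the channels were exchanged, every ratio and ratio difference below would change sign, and the Cy3 values would be those of the treated rats. Ratios are given as Cy5 over Cy3 for that reason. The oxaliplatin arrays shared a slide and a scan, and the vehicle arrays shared another slide, so slide and group cannot be told apart either. The median Cy3 intensity of all spots was 283.5 on oxaliplatin replicate 2, below the 494 to 564 of the remaining arrays, and the median Cy5 intensity was 913 to 1024. In tissue RNA, fewer cells of a type and less RNA per cell cannot be told apart.

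Lineage genes were mostly lower in Cy5 than in Cy3 on these arrays. Of the 8 genes, 7 had a lower Cy5 than Cy3 signal after loess normalisation over the 4 arrays (limma, adjusted p under 0.05). This stands beside 26.3% of all genes tested that were called lower, and 0 were called higher, beside 29.3%. Together 55.6% of all genes were called. The same 7 had ratios below 0 on all 4 arrays, beside 27.6% of all genes. With median centring in place of loess, Myrf (-1.20), Enpp2 (-0.93), Olig1 (-0.55) and Fa2h (-0.35) stayed called lower, Sox10 (-0.15), Olig2 (-0.03) and Cspg4 (-0.01) did not pass, and Pdgfra was higher (0.27). The median of the 8 mean log2 ratios was -0.74, beside 0.029 for all genes tested. Ratios ran from -1.38 ± 0.07 (SE, n = 4 arrays) for Enpp2 to 0.00 ± 0.06 for Pdgfra. Enpp2, Myrf, Olig1 and Fa2h lay lowest, at -1.38, -1.20, -1.13 and -0.95, though Myrf lay below Enpp2 with median centring and with the scanner software's processed signals (-1.54 and -1.43). Sox10 and Olig2 followed at -0.52 and -0.38, then Cspg4 at -0.26 and Pdgfra at the top. With loess, the 95% intervals of neighbours in this order overlapped, except for Fa2h (-1.13 to -0.78) and Sox10 (-0.69 to -0.35).

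**Figure D1:**
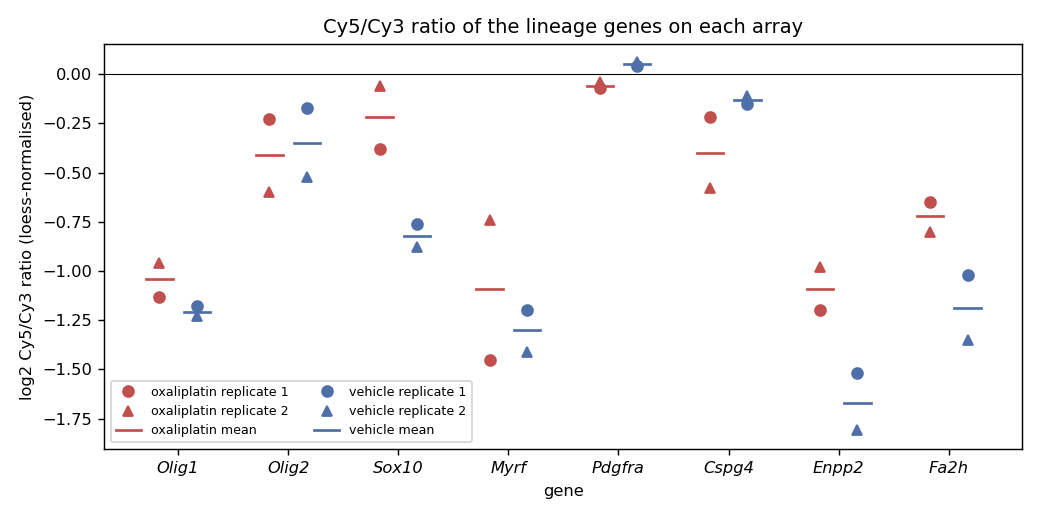
Loess-normalised log2 Cy5/Cy3 ratio (vertical axis) of the 8 measured genes on each array, with oxaliplatin arrays left of vehicle arrays and a bar at each group's mean (n = 2 arrays). Sox10, Enpp2, Fa2h and Olig1 have both oxaliplatin ratios above both vehicle ratios, Pdgfra and Cspg4 have both below, and Olig2 and Myrf overlap.

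With oxaliplatin set against vehicle, no lineage gene passed the test, and no gene of the whole table did. The Cy5/Cy3 ratios of Sox10, Enpp2 and Fa2h were higher on the oxaliplatin arrays by 0.60 ± 0.14, 0.58 ± 0.15 and 0.46 ± 0.15 (log2, SE, n = 2 arrays per group), each with an adjusted p of 0.294 to 0.306 in limma. Both precursor surface genes had lower ratios, by -0.11 ± 0.11 for Pdgfra and -0.28 ± 0.15 for Cspg4. Of the 8 genes 0 were called, beside 0% of 22817 genes, while 3 of the 8 had an unadjusted p under 0.05, beside 14.6% of all genes. The oxaliplatin arrays lay entirely above the vehicle arrays for 4 of the 8 genes, beside 27% of all genes, and entirely below for 2, beside 22.2%. The median difference was 0.19 over the 8 genes and 0.006 over all genes.

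Olig1 and Olig2 are basic helix-loop-helix transcription factors and lie next to each other in the GRCr8 annotation. Olig2 sets up the lineage in the embryonic cord and Olig1 acts in differentiation. Olig1 had log2 ratios of -1.13 and -0.96 on the oxaliplatin arrays, against -1.18 and -1.23 on the vehicle arrays. The groups lay apart for Olig1, narrowly, and the difference of 0.16 ± 0.12 did not pass in limma (adjusted p = 0.563, 95% interval -0.13 to 0.45). Olig2 had ratios of -0.23 and -0.60 on the oxaliplatin arrays, against -0.17 and -0.52 on the vehicle arrays. These groups overlapped, and the arrays of a group lay further apart than the group means. The difference for Olig2 was -0.07 ± 0.18, with an interval from -0.49 to 0.35, and its sign turned with median centring in place of loess (0.04). A second Olig2 probe was close to background, with 1 of its 2 Cy5 spots well above it on 3 of the arrays, and its ratios were -0.28 and -0.19 on the oxaliplatin arrays and -0.23 and -0.33 on the vehicle arrays. In Cy3 that probe was not well above background on oxaliplatin replicate 2.

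Sox10, an HMG-box factor that the lineage keeps from precursor to mature cell, had ratios of -0.38 and -0.06 on the oxaliplatin arrays, against -0.76 and -0.88 on the vehicle arrays. Both oxaliplatin arrays lay nearer to 0 than either vehicle array. Oxaliplatin replicate 2 had nearly equal normalised signals in the channels, from raw intensities of 12400 in Cy5 and 3160 in Cy3. Of the 8 genes Sox10 had the smallest p for the group difference, with a 95% interval of 0.25 to 0.94, and its adjusted p of 0.294 was shared with Enpp2. Without oxaliplatin replicate 1 the difference was 0.76, while leaving out each of the other arrays gave 0.44 to 0.66. The 0.76 rests on oxaliplatin replicate 2, the array with the low median Cy3 intensity. The Schwann cell list was higher in Cy5 for 10 of 10 genes, with a summed normalised Cy5 signal of 70800 to 72000 on the oxaliplatin arrays and 73700 to 77500 on the vehicle arrays. In Cy3 that sum was 10300 to 11700 on the oxaliplatin arrays and 10700 to 12200 on the vehicle arrays, and no gene of the list was at background on all arrays in either channel. The part of Schwann cell RNA in the Sox10 values was not tested.

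Myrf, the membrane-bound factor that turns on myelin genes, had ratios of -1.45 and -0.74 on the oxaliplatin arrays, against -1.20 and -1.41 on the vehicle arrays. The 2 oxaliplatin ratios lay on either side of both vehicle ratios. Its Cy3 intensities were 736 and 234 on the oxaliplatin arrays and 785 and 738 on the vehicle arrays. Its ratio difference was 0.21 ± 0.23 and became -0.14 without oxaliplatin replicate 2, the array with the low Cy3 intensity.

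Pdgfra, the receptor for the mitogen PDGF-A, had ratios of -0.07 and -0.04 on the oxaliplatin arrays, against 0.04 and 0.06 on the vehicle arrays. These ratios lay on opposite sides of 0 in the groups, as for 6.07% of all genes. In the authors' deposited table they did not, at -0.14 and -0.14 on the oxaliplatin arrays and -0.04 and 0.02 on the vehicle arrays. The difference of -0.11 ± 0.11 did not pass in limma (adjusted p = 0.673). Median centring gave a difference of 0.02. Pdgfra was the single gene of the 8 not lower in Cy5 than in Cy3 (interval -0.13 to 0.13). Fibroblast and meningeal genes, of cells that also express Pdgfra, were called higher in Cy5 for 8 of 9 genes, beside 29.3% of all genes. Their summed normalised Cy5 signals were 48700 to 50800 on the oxaliplatin arrays and 48800 to 48900 on the vehicle arrays. Their Cy3 sums were 10400 to 13400 and 9730 to 10800 on the same arrays. No gene of that list was at background on all arrays in either channel, and its part in the Pdgfra values was not tested.

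Cspg4 had ratios of -0.22 and -0.58 on the oxaliplatin arrays, against -0.15 and -0.11 on the vehicle arrays. Both oxaliplatin arrays lay lower, and oxaliplatin replicate 2 carried most of the distance: without it the difference was -0.09, against -0.28 with all arrays. The pericyte list, of cells that also carry Cspg4, had a median mean ratio of -0.10. In that list 3 of 10 genes were called higher in Cy5 and 5 lower, beside 29.3% and 26.3% of all genes. Its summed Cy5 signal was 19400 to 19800 on the oxaliplatin arrays and 21500 to 22000 on the vehicle arrays, its Cy3 sum was 15900 to 19600 and 18500 to 19800 on the same arrays, and none of its genes was at background on all arrays in either channel. The part of pericyte RNA in the Cspg4 values was not tested. The call of Cspg4 as lower in Cy5 (-0.26 ± 0.07) was lost with median centring (-0.01) and without oxaliplatin replicate 2 (-0.17), vehicle replicate 1 (-0.25) or vehicle replicate 2 (-0.28).

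Enpp2, or autotaxin, is a secreted enzyme that makes lysophosphatidic acid. Its ratios were -1.20 and -0.98 on the oxaliplatin arrays, against -1.52 and -1.81 on the vehicle arrays. All 4 lay far below 0, and after loess normalisation the Cy5 signal was 2.6-fold lower than the Cy3 signal on average. Raw Cy3 intensities were 12700 and 5880 on the oxaliplatin arrays, against 19700 and 24800 on the vehicle arrays. In Cy5 they were 13600 and 12600 on the oxaliplatin arrays, against 13200 and 17000 on the vehicle arrays. Before normalisation Cy5 therefore lay above Cy3 on both oxaliplatin arrays and below it on both vehicle arrays. The group difference in the ratio had an interval of 0.22 to 0.94. Genes of the choroid plexus, the other source of Enpp2 named above, were listed together with ependymal genes. The median mean ratio of this list was -0.09, but its genes ran from -0.66 to 1.54. Of them 4 were called higher in Cy5 and 3 lower, beside 29.3% and 26.3% of all genes. The summed Cy5 signals of these genes were 3720 to 3810 on the oxaliplatin arrays and 3760 to 3840 on the vehicle arrays. Their Cy3 sums were 3020 to 3310 on the oxaliplatin arrays and 2850 to 3490 on the vehicle arrays, with none of the 9 measured genes at background on all arrays in either channel, and their part in the Enpp2 values was not tested.

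Fa2h adds a hydroxyl group to the fatty acids of the myelin galactolipids. Its ratios were -0.65 and -0.80 on the oxaliplatin arrays, against -1.02 and -1.35 on the vehicle arrays. The groups lay apart, with a difference of 0.46 (interval 0.11 to 0.82) that was 0.29 without vehicle replicate 2. A second Fa2h probe had ratios of -0.92 and -0.87 on the oxaliplatin arrays, against -1.05 and -1.07 on the vehicle arrays. Both probes placed the oxaliplatin arrays nearer to 0, but the second probe did so by 0.16 and the first by 0.46. Over all arrays the mean ratio was -0.97 for the second and -0.95 for the first probe.

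Fa2h and Pdgfra are the genes furthest apart in the Cy5/Cy3 ratio among those with a promoter in the RefSeq table of build GRCr8, which held 5 of the 9 genes, and their promoters are shown for that reason. Each window runs from 250 bases before to 50 bases after the annotated start and is written 5' to 3' on the strand of the gene. Capitals mark matches to CANNTG, the E-box that helix-loop-helix factors such as Olig2 bind, searched on both strands, which read the same. No match overlapped one to ACAAT, a core of Sox-factor motifs, searched on both strands, since neither window held ACAAT.
Fa2h, chr19:56273431-56273730, minus strand: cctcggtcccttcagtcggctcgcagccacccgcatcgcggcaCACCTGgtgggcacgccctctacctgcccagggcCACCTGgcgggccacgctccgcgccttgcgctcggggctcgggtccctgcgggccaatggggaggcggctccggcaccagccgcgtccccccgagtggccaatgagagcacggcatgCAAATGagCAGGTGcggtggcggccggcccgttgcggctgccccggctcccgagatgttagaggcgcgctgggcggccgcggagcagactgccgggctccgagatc
Pdgfra, chr14:33408467-33408766, minus strand: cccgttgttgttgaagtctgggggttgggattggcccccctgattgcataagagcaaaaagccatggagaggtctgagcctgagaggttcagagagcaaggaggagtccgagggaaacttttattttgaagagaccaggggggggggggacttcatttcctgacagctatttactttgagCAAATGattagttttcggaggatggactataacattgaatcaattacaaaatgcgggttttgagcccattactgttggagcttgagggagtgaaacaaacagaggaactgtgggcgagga
The Fa2h window held 4 matches to CANNTG and the Pdgfra window 1, and 72.1% of the 33469 rat promoters of this length held at least 1, with a mean of 1.36. ACAAT was found in 33.7% of all promoters, and among the 5 windows of lineage genes it was found once, in that of Olig2. The Fa2h window was 74.3% G and C and the Pdgfra window 48%. A match is a run of letters and was not tested as a binding site.

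For most of the 8 genes, as for most genes tested, the group difference was larger in Cy3 than in Cy5. In Cy3, the channel of the untreated rats per the labels, normalised log2 signals were lower on the oxaliplatin arrays for Enpp2 by -0.93 ± 0.23, for Sox10 by -0.89 ± 0.20 and for Fa2h by -0.57 ± 0.21. In Cy5 the same genes differed by -0.35 ± 0.11, -0.29 ± 0.08 and -0.11 ± 0.08, in the same direction as Cy3 and opposite to the ratio. Across all genes the group differences in Cy5 and Cy3 correlated by 0.86, so their shared direction was not particular to these genes. The differences in the ratio correlated by -0.66 with those in Cy3 and by -0.18 with those in Cy5. These correlations are partly set in advance, since the log2 ratio is Cy5 minus Cy3. Of the 8 genes, 7 had a larger difference in Cy3 than in Cy5, beside 68.7% of all genes tested. None of the 8 passed in either channel alone, where 0% of genes were called. An unadjusted limma p under 0.05 was found for 2 of the 8 in Cy5, beside 20.5% of all genes. In Cy3 it was found for 3 of the 8, beside 20.9%. Cspg4 was the exception in size, at -0.22 ± 0.09 in Cy5 and 0.05 ± 0.19 in Cy3.

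**Figure D2:**
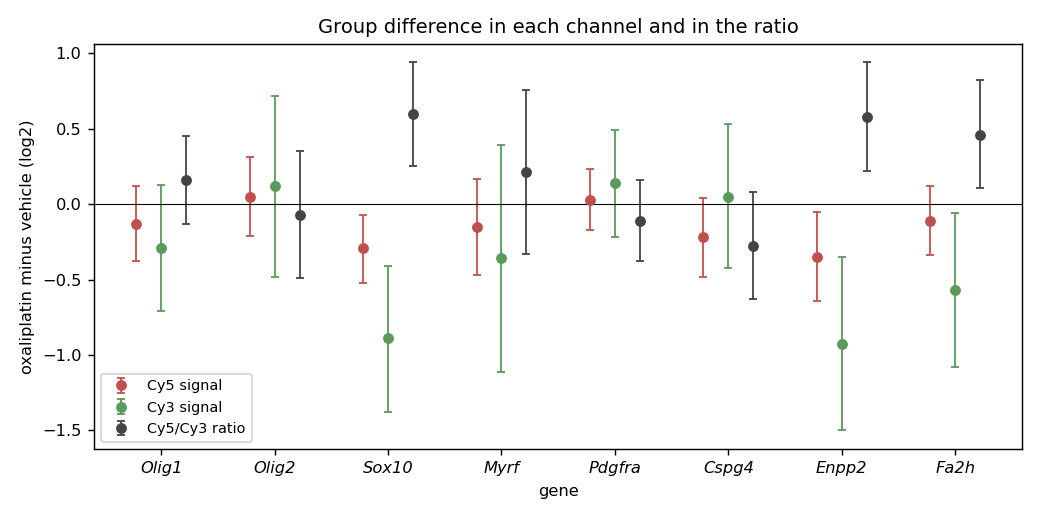
Oxaliplatin minus vehicle (log2, vertical axis) in the normalised Cy5 signal, the normalised Cy3 signal and the Cy5/Cy3 ratio of each gene, with 95% intervals from the limma fit (n = 2 arrays per group). For Sox10, Enpp2 and Fa2h the Cy3 interval lies below 0 and the ratio interval above 0 before adjustment over all genes.

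Array by array, Sox10 had normalised log2 Cy5 signals of 12.90 and 12.83 on the oxaliplatin arrays, against 13.10 and 13.21 on the vehicle arrays. Its Cy3 signals were 13.28 and 12.89 on the oxaliplatin arrays, against 13.86 and 14.09 on the vehicle arrays. Both channels therefore held less normalised Sox10 signal on the oxaliplatin arrays, with the wider gap in Cy3. The raw Cy5 intensities overlapped, at 12700 and 12400 on the oxaliplatin arrays, against 12300 and 15200 on the vehicle arrays. For Enpp2 the Cy5 signals were 12.98 and 12.82 on the oxaliplatin arrays, against 13.16 and 13.34 on the vehicle arrays. In Cy3 they were 14.18 and 13.80 on the oxaliplatin arrays, against 14.68 and 15.16 on the vehicle arrays. The ordering was that of Sox10. Pdgfra had Cy5 signals of 12.39 and 12.40 on the oxaliplatin arrays, against 12.33 and 12.41 on the vehicle arrays, and its Cy3 signals were 12.46 and 12.44 on the oxaliplatin arrays, against 12.29 and 12.34 on the vehicle arrays. In Cy5 the oxaliplatin arrays lay entirely below the vehicle arrays for 5 of the 8 genes, beside 30.2% of all genes, and entirely above for 0, beside 29.6%. In Cy3 they lay below for 4, beside 31.3%, and above for 1, Pdgfra, beside 26.9%.

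Other genes of the lineage gave a mixed picture. In a list of 25 further lineage and precursor genes, 18 were measured. Of these, 10 were lower in Cy5 than in Cy3 and 3 higher, beside 26.3% and 29.3% of all genes. Their median ratio was -0.29, with 0 called between oxaliplatin and vehicle. Among them Nkx6-2, C1ql1 and Bcas1 lay lowest, at -1.50, -1.44 and -1.34. Of the precursor markers in this list, Neu4 was at -0.94, Ptprz1 at -0.35 and Gpr17 at 0.21. All of these but C1ql1 were chosen after their values were seen. C1ql1, a secreted C1q-domain protein, differed between oxaliplatin and vehicle by 0.67 ± 0.18, the calcium channel Itpr2 by 0.70 ± 0.19 and the matrix glycoprotein Tnr by 0.53 ± 0.16. All 3 differed more in Cy3 than in Cy5, as did 68.7% of all genes. The oxaliplatin arrays lay above the vehicle arrays for 8 of the 18 and below for 2, beside 27% and 22.2% of all genes.

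Most myelin genes were lower in Cy5. Of 18 measured myelin genes 17 were lower in Cy5, with a median ratio of -1.37, and 1 was higher (Tmem125 at 0.19, named after its value was seen). Of all genes 26.3% were called lower and 29.3% higher. Between oxaliplatin and vehicle 15 of the 18 had higher and 3 lower ratios, beside 51.2% of all genes with a higher ratio. The median difference was 0.38 (0.20 with ratios scaled between arrays), with 0 called. The adhesion protein Mag differed by 0.72 ± 0.17 and the tight junction protein Cldn11 by 0.79 ± 0.19. The oxaliplatin arrays lay above the vehicle arrays for 12 of the 18 and below for 1, beside the same 27% and 22.2%. The summed Cy3 signal of the myelin genes was 561000 to 563000 on the oxaliplatin arrays, against 696000 to 760000 on the vehicle arrays, while their Cy5 sum was 250000 to 272000 on the oxaliplatin arrays, against 255000 on each vehicle array. The 8 lineage genes had Cy3 sums of 108000 to 111000 on the oxaliplatin arrays, against 134000 to 172000 on the vehicle arrays.

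**Figure D3:**
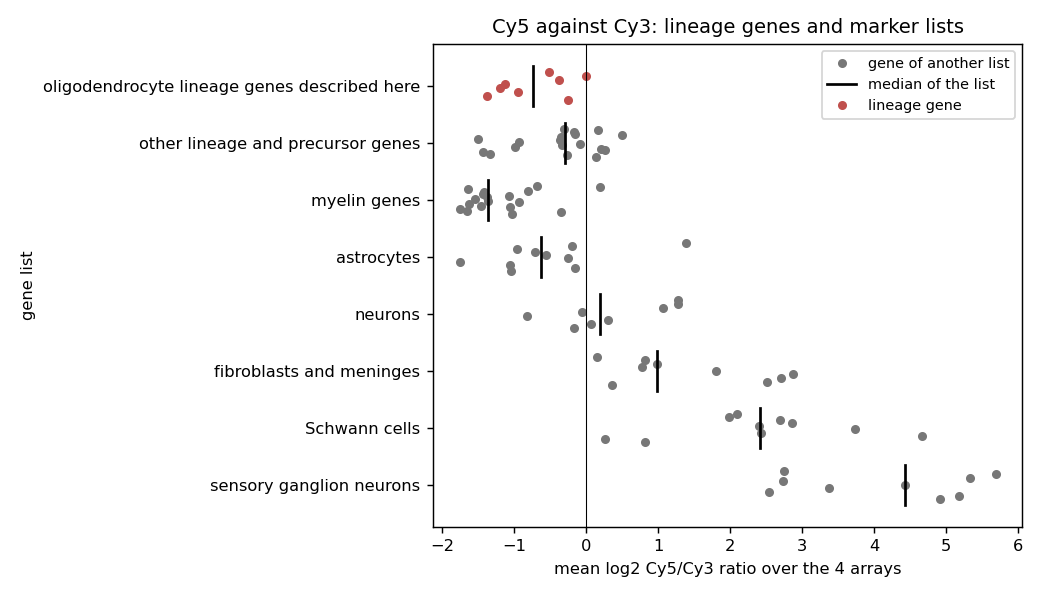
Mean log2 Cy5/Cy3 ratio over the 4 arrays (horizontal axis) for each measured gene of the lineage genes and of 7 other lists, with a bar at each list's median. The lineage genes lie between -1.38 and 0.00, the medians of the myelin and neuronal genes are -1.37 and 0.18, and Schwann cell and sensory ganglion genes lie above 0.

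The signals that act on the lineage were spread around 0. Of 25 growth factors, receptors and inhibitors, 7 were higher and 9 lower in Cy5, beside 29.3% and 26.3% of all genes, and the median difference between oxaliplatin and vehicle was 0.09, with 0 called. Lingo1, which holds back differentiation, differed by 0.51 ± 0.12, with ratios of 1.40 and 1.20 on the oxaliplatin arrays and 0.80 and 0.78 on the vehicle arrays. Unlike Sox10 and Enpp2, Lingo1 differed in Cy5 (0.53) and hardly in Cy3 (0.02). Fgfr1, a receptor for fibroblast growth factors, differed by 0.35 ± 0.13 and the Wnt inhibitor Apcdd1 by -0.45 ± 0.13. Around Enpp2, 8 receptors and phosphatases of lysophosphatidic acid had a median difference of -0.02, with Plpp2 at 0.38 ± 0.21, Lpar6 at -0.34 ± 0.19 and Plpp1 at -0.15 ± 0.14. Around Fa2h, 11 enzymes of myelin sphingolipids had a median difference of 0.07, with the ceramide synthase Cers2 at 0.61 ± 0.25, Sptlc2 at 0.39 ± 0.12 and the arylsulfatase Arsa at 0.37 ± 0.11. In these 3 lists 0 genes passed, and 4 of 25, 0 of 8 and 3 of 11 had an unadjusted p under 0.05, beside 14.6% of all genes.

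Markers of the remaining cell types moved as follows beside these results. Astrocyte genes had higher ratios on the oxaliplatin arrays for 9 of 10, beside 51.2% of all genes. Their median difference was 0.42, higher on the oxaliplatin arrays as for the myelin genes. Their Cy3 sum was 346000 to 349000 on the oxaliplatin arrays, against 384000 to 391000 on the vehicle arrays, and their Cy5 sum was 277000 to 310000 on the oxaliplatin arrays, against 247000 to 250000 on the vehicle arrays. Microglial genes differed by a median of 0.04 and neuronal genes by -0.03, and sensory ganglion genes by -0.14, with 0 called in each list. Of the brightest markers, the mean ratio was 2.51 for Col1a1 and 2.71 for Col1a2 (fibroblasts), 2.69 for Pmp22 and 2.86 for Pmp2 (Schwann cells), and 2.73 for Prph and 5.18 for Calca (sensory ganglion). It was -0.19 for Kcnj8 and 0.44 for Mcam (pericytes), -0.41 for Foxj1 and 0.88 for Rarres2 (choroid plexus and ependyma), and -0.96 for S100b and -0.16 for Aldoc (astrocytes). It was -0.01 for Aif1 (microglia), and -0.06 for Snap25 and -0.17 for Eno2 (neurons). However, 4 of the 8 measured neuronal genes were called higher in Cy5 and 2 lower, with a median of 0.18, beside 29.3% and 26.3% of all genes. Of 10 microglial genes 1 was called higher and 5 lower, with a median mean ratio of -0.26. Of 10 astrocyte genes 1 was called higher and 7 lower, with a median of -0.64. The probes of all 8 lineage genes used for the tests were well above background in both channels on all 4 arrays. This was partly set in advance, since the filter asked for Cy5 well above background on at least 2 arrays. The brightest probe of each gene was then used.

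Repeated spots showed how finely a ratio was measured on one array. The probes of Olig1, Pdgfra, Cspg4 and Fa2h (the brighter one) were each printed 10 times. Their spots had an SD of 0.026 to 0.054 (log2) on the oxaliplatin arrays, against 0.032 to 0.091 on the vehicle arrays, and for Cspg4 the spots of the oxaliplatin replicates did not overlap, at -0.26 to -0.19 and -0.65 to -0.54. On vehicle replicate 1 the spots drifted over the array: the last of 3 equal runs of spot numbers differed from the first by -0.10 on average for these probes, and by -0.05 over all replicated probes. On the other 3 arrays this drift was -0.01 to 0.00 for the 4 probes. For Fa2h the spots ran from -0.69 to -0.58 and from -0.87 to -0.76 on the oxaliplatin arrays, against -1.14 to -0.87 and -1.43 to -1.29 on the vehicle arrays. The Fa2h spots of the groups did not overlap, with 1 spot of vehicle replicate 1 close to the lowest of oxaliplatin replicate 2. For Olig1, Pdgfra and Cspg4 the spots of the groups did overlap. Spots repeat a measurement within an array and are not replicates of a group.

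**Figure D4:**
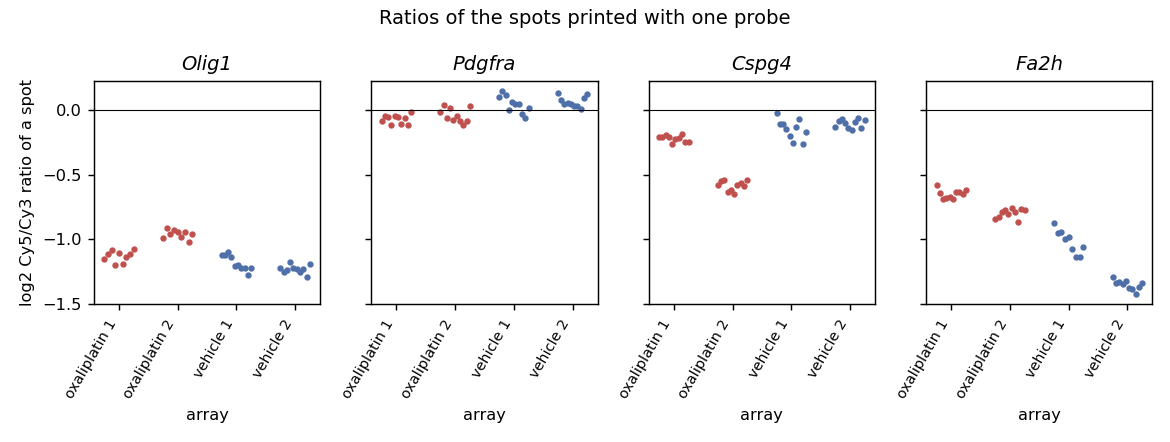
Log2 Cy5/Cy3 ratio of every spot (vertical axis) of the 4 probes printed 10 times, by array, with spots in order of spot number and outlier spots left out. Spots of an array lie close together, at an SD of 0.026 to 0.091, with the widest scatter on vehicle replicate 1.

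The genes most like the lineage genes were sought among 12577 other genes well above background in both channels on all arrays. Likeness was the Pearson correlation over 8 normalised signals (4 arrays, 2 channels) with the mean profile of the 8 lineage genes, a description only, since the signals share arrays. Slc6a9, Hap1, Dstyk, Grhpr and Csf1 were among the 6 most alike, with correlations of 0.997 to 0.998. Each lineage gene is itself part of the mean profile, so its own correlation is partly set in advance. Within the lineage genes the correlation with their own mean was 0.991 for Enpp2, 0.986 for Olig1, 0.982 for Fa2h and 0.931 for Myrf. It was 0.843 for Sox10, 0.692 for Olig2, 0.656 for Cspg4 and -0.212 for Pdgfra, the lowest of the 8.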

How the data were processed

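Each scanner file gives median pixel intensity per spot and background, processed intensity, a log10 ratio of Cy5 over Cy3, and flags, per the file headers. Version 10.7.1.1 of Agilent Feature Extraction stands in the headers, against 8.5.1.1 in the submitters' processing notes. The authors' deposited value table holds log10 ratios that lay within 0.0050 of the scanner files' ratios, so scale and direction are theirs. Its column medians were -0.00277 and 0 (oxaliplatin) and -0.00492 and -0.00316 (vehicle). Columns left unmapped numbered 0.

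Median intensities were corrected with normexp (offset 50) and loess-normalised to log2 ratios in limma 3.58.1 under R 4.3.3, and single channels by Aquantile. The 4259 control spots per array and outlier spots were left out. Spots of a probe were averaged, and a gene took its brightest probe, with Cy5 well above background on at least 2 arrays. Accessions named 18758 of 30367 probes through RefSeq. Groups came from the sample titles. Oxaliplatin was compared with vehicle, and the mean ratio with 0, by lmFit and eBayes (two-sided, residual df 2, prior df 4.74, Benjamini-Hochberg over 22817 genes, threshold 0.05), tested on simulated data. Alternatives changed background correction, normalisation, filter, probe rule, replicate block and each array.

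Genes and lists were chosen with earlier results of these data known. The rule named all lineage genes, the 3 of each pathway list with the smallest p, the 2 brightest markers of each cell type and the 6 most alike. Some genes that the rule names are not reported here. The arrays of a group are called biological replicates, and p-values measure only the spread between these arrays.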

Additional observations from a re-analysis of the deposited data

Results flagged for a closer look

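The Cy5/Cy3 ratio of Pdgfra was below 0 on both oxaliplatin arrays (-0.07 and -0.04) and above 0 on both vehicle arrays (0.04 and 0.06). In the authors' deposited table it was -0.14 and -0.14 on the oxaliplatin arrays and -0.04 and 0.02 on the vehicle arrays, so the opposite signs were lost there. The difference was -0.11 (log2) and did not pass in limma (adjusted p = 0.673), and 6.07% of all genes had such opposite signs. It was 0.02 under median centring.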

How the results depend on the processing

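Counts of called genes for oxaliplatin against vehicle depended on single arrays. The ratio gave 0 calls with all arrays, under every change of background correction, normalisation, filter and probe rule, and 2 to 930 calls when an array was left out, the highest without oxaliplatin replicate 1. Cy5 alone gave 0 to 5585 and Cy3 alone 0 to 2311 when an array was left out, both highest without vehicle replicate 1, and 0 otherwise. The count for Cy5 against Cy3 stayed within 1.5 times of 12693 throughout (9326 to 13210 when an array was left out). With the replicate block the ratio gave 3 calls. The numbers share no stated source, the deviations of same-numbered arrays correlated by -0.222 in the ratio, and the crossed replicate block, added after seeing the data, gave 537 calls.

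Among the 8 genes, 90 of 96 alternative values of the ratio difference kept their direction and call. Sox10 kept its direction without oxaliplatin replicate 1 (0.76), where only its call changed. The sign turned for Olig2 with median centring (0.04), without oxaliplatin replicate 2 (0.11) and without vehicle replicate 1 (0.10), for Pdgfra with median centring (0.02) and for Myrf without oxaliplatin replicate 2 (-0.14). Of the mean ratios, 87 of 96 held. Median centring ended the calls of Olig2 (-0.03), Sox10 (-0.15) and Cspg4 (-0.01) and put Pdgfra at 0.27, and leaving out an array ended that of Cspg4 (-0.28 to -0.17). Pdgfra was at 0.01 without oxaliplatin replicate 1 and 0.00 without vehicle replicate 1. In Cy3, Olig2 turned to -0.06 without oxaliplatin replicate 2 and -0.15 without vehicle replicate 1, Cspg4 to -0.15 and -0.02, and Myrf to 0.09 without oxaliplatin replicate 2. In Cy5, Olig2 turned to -0.04 and Pdgfra to -0.01 without vehicle replicate 1. Without vehicle replicate 1 the Cy3 differences were -1.01 for Sox10, -1.17 for Enpp2 and -0.80 for Fa2h. The Cy5 differences in that setting were -0.35 for Sox10 and -0.31 for Cspg4. The cause of these changes was not tested. Where 1 array of a group was left, it was assumed to vary like the other group. Over the settings that left out an array, the ratio difference ran from -0.25 to 0.11 for Olig2 and from -0.14 to 0.57 for Myrf, the Cy5 difference from -0.04 to 0.15 for Olig2 and from -0.01 to 0.06 for Pdgfra, and the Cy3 difference from -0.15 to 0.39 for Olig2 and from -0.15 to 0.26 for Cspg4.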
